A study of Mus musculus with 8 samples.

Results

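The comparison set all later times, 6, 12 and 24 hours, against 0 hours in mouse leukaemia cells profiled by ATAC-seq. It used all 8 libraries of the series, 6 later libraries (2 each of 6h, 12h and 24h) and 2 libraries of 0h. Peaks of chromosomes 1 to 19 and X from all 8 lists were joined wherever they overlapped by at least 1 bp, which gave 32720 merged regions. Of these, 13359 were called in 6 or more libraries, 13271 of which had a peak in at least 1 library of 0h and entered the test. The remaining 88 had a peak in every later library and in neither library of 0h.

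The cells were GFP-positive acute myeloid leukaemia cells driven by the MLL-AF9 fusion, sorted from leukaemic mice, and the labels give bone marrow as the tissue and C57BL/7 in the cell line field. All groups, 0h included, carried TetO-Klf4, a Klf4 construct under a doxycycline-controlled promoter. The later libraries were labelled 6h, 12h and 24h and the others 0h, and doxycycline treatment of the 0h cells is not stated. Whether both libraries of a time had their own mice is not stated either, so the p-values below speak of library-to-library spread only, part of which may be technical. The question was which sites of open chromatin differed between 0h and the later times in cells that carry the inducible Klf4.

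KLF4 is a zinc-finger transcription factor of the KLF and SP family that binds CACCC and GC-rich elements, many of them in promoters, and it is known for its part in monocyte differentiation and in reprogramming to pluripotency. MLL-AF9 joins the DNA-binding end of the histone methyltransferase MLL (KMT2A) to AF9 (MLLT3), and keeps blood progenitors dividing through genes such as Hoxa9 and Meis1. In ATAC-seq a transposase cuts accessible DNA, so peaks mark promoters, which are open in most cell types, and distal enhancers, which vary more between cell types and states.

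The upstream DNA of 5 genes is shown first, because their regions are described further on. Each line gives the 250 bases before a RefSeq gene start (GRCm38.p6), 5′ to 3′ on the strand of the gene. Capitals mark matches to CACCC or CCNCNCCC on either strand, and matches to these motifs can overlap. Klf4 is the gene that the TetO construct carries, and its window is that of the native gene. Nfkbib and Jak1 lie in regions whose later values were all above both 0h values. Eif4g1 and Fam219b lie in regions whose later values were all below them. The windows are chr4:55532476-55532725 (minus strand) for Klf4, chr7:28766645-28766894 (minus) for Nfkbib, chr4:101265224-101265473 (minus) for Jak1, chr16:20672477-20672726 (plus) for Eif4g1 and chr9:57537278-57537527 (plus) for Fam219b.
Klf4: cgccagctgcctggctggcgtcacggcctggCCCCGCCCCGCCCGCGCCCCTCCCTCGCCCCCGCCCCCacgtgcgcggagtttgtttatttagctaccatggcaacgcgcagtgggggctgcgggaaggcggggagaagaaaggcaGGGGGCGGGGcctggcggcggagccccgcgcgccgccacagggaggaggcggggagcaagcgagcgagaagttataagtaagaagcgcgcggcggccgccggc
Nfkbib: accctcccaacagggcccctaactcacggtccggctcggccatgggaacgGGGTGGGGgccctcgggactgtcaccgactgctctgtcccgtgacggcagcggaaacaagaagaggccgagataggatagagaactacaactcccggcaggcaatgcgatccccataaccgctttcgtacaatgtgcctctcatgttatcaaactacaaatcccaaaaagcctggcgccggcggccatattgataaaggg
Jak1: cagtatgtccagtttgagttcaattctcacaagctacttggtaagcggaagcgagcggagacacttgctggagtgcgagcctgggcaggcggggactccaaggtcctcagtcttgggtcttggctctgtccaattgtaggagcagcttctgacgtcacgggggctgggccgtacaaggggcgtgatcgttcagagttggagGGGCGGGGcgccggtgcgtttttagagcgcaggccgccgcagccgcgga
Eif4g1: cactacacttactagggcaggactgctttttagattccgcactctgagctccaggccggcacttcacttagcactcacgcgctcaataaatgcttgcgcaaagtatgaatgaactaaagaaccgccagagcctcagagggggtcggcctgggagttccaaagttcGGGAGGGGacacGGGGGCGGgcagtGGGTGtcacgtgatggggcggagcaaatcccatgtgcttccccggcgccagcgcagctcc
Fam219b: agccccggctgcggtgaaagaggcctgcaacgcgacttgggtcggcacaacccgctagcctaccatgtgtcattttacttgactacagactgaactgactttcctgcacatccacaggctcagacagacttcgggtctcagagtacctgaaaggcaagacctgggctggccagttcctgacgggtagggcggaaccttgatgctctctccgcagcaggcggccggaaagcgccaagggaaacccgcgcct
The Klf4 window held 9 matches to CCNCNCCC and 0 to CACCC, and its GC content was 74.0%. The Nfkbib window held 1 match to each motif, in the same run of bases. The Jak1 window held 1 match to CCNCNCCC, the Eif4g1 window 2 to CCNCNCCC and 1 to CACCC, and the Fam219b window 0 to either. Over all 32619 promoters of the same length, 46.2% held CCNCNCCC and 52.1% held CACCC, so a match is common and is a description of the letters only.

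The 2 libraries of 0h were the least alike of the 8 and lay on opposite sides of the later libraries in depth. The later lists held 14822 to 21895 peaks, with a median of 17696, against 21756 in the first 0h library and 15638 in the second. Read totals are not given in these files, but the number of fragments stacked at a summit could be recovered from the deposited fold and p-value for 99.8% to 99.9% of peaks. Over the 9168 regions called in all 8 libraries its median was 21 to 29 in the later libraries, against 31 and 14 in the 0h libraries. The median peak width in those regions was 475, 508.5 and 578 bp (lowest, median and highest of the later libraries), against 634 and 369 bp at 0h. In pile-up and in width, one 0h library lay above every later library and the other below.

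The defining markers of the labelled cells were only partly open. Of 10 markers of myeloid leukaemia, 5 were open, with a peak no more than 1 kb outside the gene, in all 8 libraries: Ptprc, the pan-leukocyte surface phosphatase CD45; Spi1 and Cebpa, the myeloid transcription factors PU.1 and C/EBP alpha; and the self-renewal genes Hoxa9 and Meis1. Mpo, the neutrophil peroxidase, and Csf3r, the G-CSF receptor, had a peak in none. Markers of other cells had peaks at some genes and not at others: the later libraries had a peak at 0 to 3 of 7 B lineage genes, against 2 and 1 at 0h, and at 2 to 3 of 8 T and NK lineage genes, against 3 and 1 at 0h. Of the B lineage genes, Cd79b and Ms4a1 had a peak in none of the 8 libraries, and Pax5 and Ebf1, which encode transcription factors of that lineage, in 6 each. Of the T and NK lineage genes, Cd3e, Cd3g and Cd8a had a peak in none, Cd3d in all 8, Lck in 7 and Tcf7 in 4. Each library had a peak at 1 of 6 erythroid genes (Klf1). Counts in the later libraries were 1 to 2 of 6 megakaryocyte genes and 1 to 4 of 8 stromal and endothelial genes, against 2 and 3 in each 0h library. In such bulk samples fewer cells with an open site and less opening per cell cannot be told apart.

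No region passed the test. The measure was the percentile of a peak's fold within its own list, from 0 for the weakest peak of a library to 100 for its strongest, compared with limma over all 13271 regions. At an adjusted p below 0.05, 0 regions were higher later and 0 were lower, each 0% of those tested. The smallest p was 8.76e-05 and the smallest adjusted p 0.616 (Benjamini-Hochberg). At an unadjusted p below 0.05 there were 636 regions, 4.79% of those tested, with 322 (2.43%) higher and 314 (2.37%) lower later. That is near the share which this threshold gives where nothing differs. The standard error of a difference had a median of 12.3 percentile points, and for 10% of regions it was below 5.41 and for another 10% above 17.0. A difference of a few points was therefore not detectable in this design.

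The differences themselves lay on both sides of 0. The later minus 0h difference had a median of −1.36 percentile points, and 5% of regions were below −24.2 and 5% above 20.3. It was positive in 5946 regions and negative in 7325. Regions whose strongest summit lay within 1 kb of a protein-coding gene end had a median of −0.77, and the distal ones −2.51. List length affects a percentile, so the folds of the 9168 regions called in all 8 libraries were also ranked among themselves, a measure called the common rank below. On that scale the median difference was −0.09 for all, 0.17 near gene ends and −0.54 for distal regions. It was positive in 4548 regions and negative in 4620, a nearly even split. Again 0 regions passed in either direction (0% of those tested), the smallest adjusted p was 0.0810, and 497 regions (5.42%) had an unadjusted p below 0.05. The plot of the differences shows both groups of regions.

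**Figure D1:**
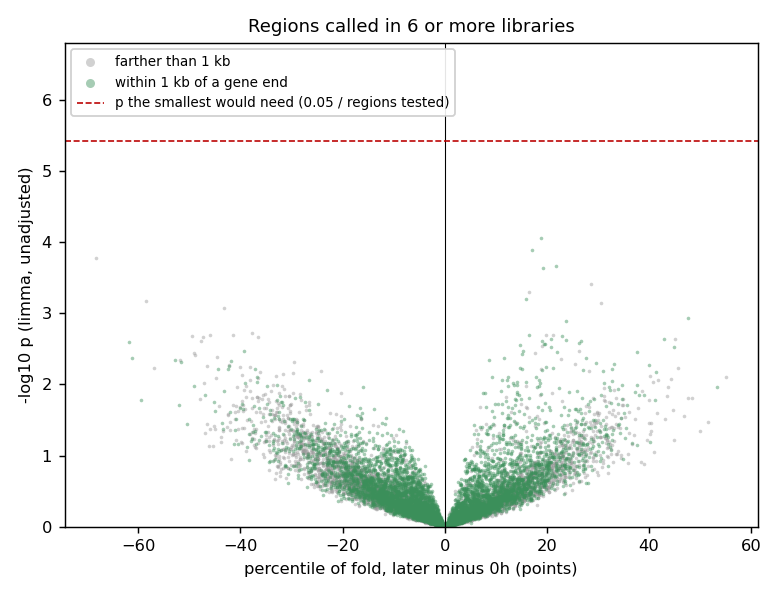
Difference in within-list percentile, later minus 0h (x axis, points), against −log10 of the unadjusted limma p (y axis) for the 13271 regions tested, 1 point per region, green where the strongest summit lies within 1 kb of a gene end and grey elsewhere. Points spread to both sides, with medians of −0.77 near gene ends and −2.51 elsewhere, and none reaches the dashed line, the p that the smallest one alone would need (0.05 over the number of regions).

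Few regions had later values clear of both 0h values. Among the 9168 regions called in all 8 libraries, all 6 later percentiles lay above both 0h percentiles in 265 (2.89%) and below both in 334 (3.64%). On the common rank these counts were 376 (4.1%) and 294 (3.21%), so which side was larger depended on the scale. If nothing differed, each pattern would be met in 1 of the 28 arrangements of the libraries, a share near all of these. Of the 322 regions higher at an unadjusted p below 0.05, 61.5% lay within 1 kb of a gene end (95% Wilson interval 56.1% to 66.6%), and of the 314 lower ones 37.6% did (32.4% to 43.1%), beside 56.4% of all regions tested. These regions were chosen by p, so the shares describe them and were not tested. Their number was near what such a threshold gives where nothing differs, so the intervals do not show a split between gene-end and distal regions. The median of the mean percentile was 76.3 in the higher set and 39.6 in the lower set.

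The rank order of regions differed more between the 2 libraries of 0h than between any 2 later libraries. Spearman's rho over the 9168 shared regions was 0.659 to 0.715 for the 15 pairs of later libraries, with a median of 0.675, against 0.571 for the 0h pair. Pairs from the same later time had 0.693 to 0.715. The later libraries correlated with the first 0h library at 0.649 to 0.677, which overlaps their correlations with one another, and with the second at 0.588 to 0.642, below every later pair. The SD of the difference in rank between 2 libraries was 21.8 to 23.9 points for later pairs and 26.7 points for the 0h pair. These are correlations across regions, which are not independent replicates, and the depth of the libraries moves with them. Its part in the result was not tested.

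**Figure D2:**
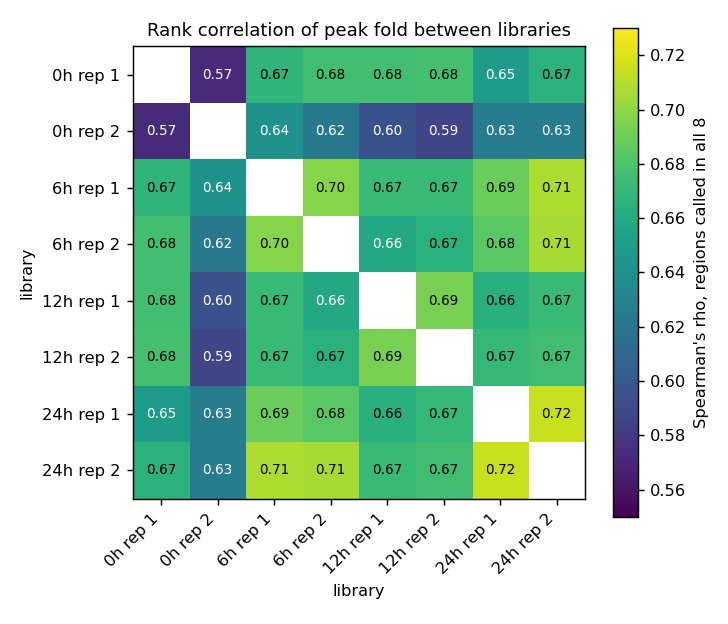
Spearman's rho of the fold over the 9168 regions called in all 8 libraries, for every pair of libraries, shown as a grid with a colour scale and libraries in order of time on both axes. The 0h pair has the lowest value, 0.571, and the pairs of later libraries lie between 0.659 and 0.715.

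None of 6 measures of whole libraries separated later from 0h. With 6 libraries against 2 there are 28 arrangements, and the smallest two-sided p of the exact permutation test is 0.0714, so no measure could pass 0.05. The share of peaks near a gene end was 46.5% ± 4.79 later (SD, n = 6) and 43.7% ± 5.02 at 0h (n = 2), with an exact permutation p of 0.643. The median common rank of gene-end regions was 56.9, 58.4 and 59.1 (lowest, median and highest) in the later libraries, against 58.4 and 56.8 at 0h (p = 0.429, exact permutation test). The median fold in shared regions was 10.5 ± 0.334 later and 9.93 ± 0.944 at 0h (p = 0.357, exact permutation test). Peaks per list, peak width and the share of peaks in regions called in all 8 libraries had exact permutation p-values of 0.714, 0.786 and 0.714. All 6 adjusted values were 0.786. The plot of library measures shows the ranges of both groups overlapping.

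**Figure D3:**
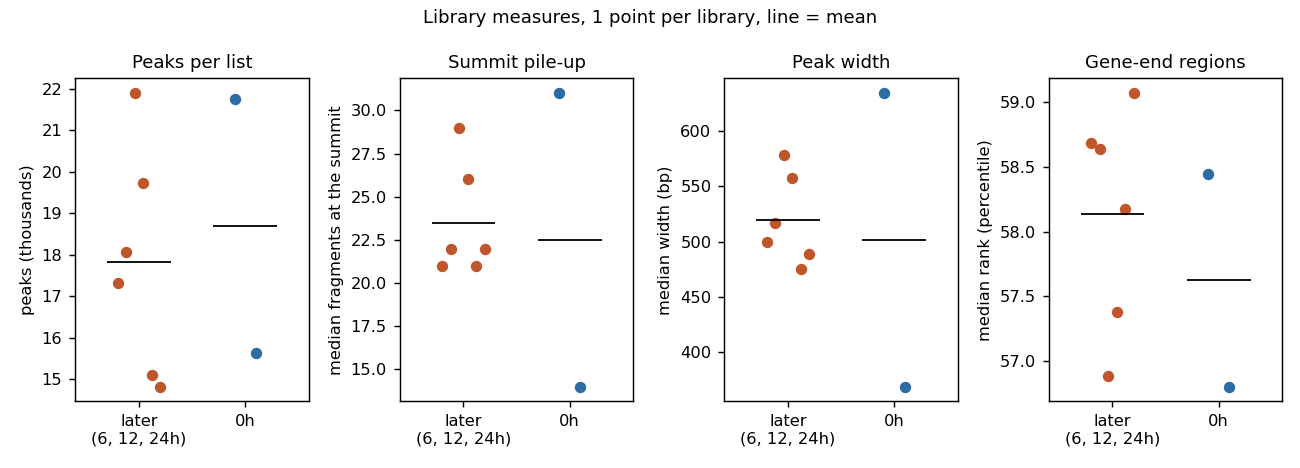
Peaks per list, median summit pile-up, median peak width (both in regions called in all 8 libraries) and median common rank of gene-end regions, 1 point per library and a line at the group mean, with the 6 later libraries left of the 2 libraries of 0h. The 0h points lie on both sides of the later ones for median peak width (634 and 369 bp against 475 to 578 bp later) and for summit pile-up (31 and 14 against 21 to 29).

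At the native Klf4 locus, no difference between the pooled later times and 0h was seen beyond the spread. The labels place the inducible Klf4 in the TetO construct, and whether the native gene was induced was not measured. The region inside the gene, chr4:55530055-55530940, had percentiles of 10.0, 32.1 and 46.1 in the later libraries (lowest, median and highest), against 32.2 and 39.0 at 0h. Both 0h values lay within the later range, and the difference was −4.33 points (SE 11.8, limma adjusted p = 0.974). The later times differed from one another, with means of 45.8 at 6h, 32.1 at 12h and 15.8 at 24h, and these differences are part of the spread behind that SE. Both 6h libraries (45.6 and 46.1) lay above both 0h values, and both 24h libraries (21.6 and 10.0) lay below them. The promoter region, chr4:55532429-55533024, whose summit lay 129 bp from the gene end and which holds the sequence printed above, had 4.58, 25.7 and 53.4 later, against 20.3 in the first 0h library and no peak in the second. Its difference was 6.95 points (SE 16.8, limma adjusted p = 0.971). Its means ran the other way, 15.7 at 6h, 29.0 at 12h and 37.0 at 24h. The order of times was not tested at either region. At both regions the peaks were shallow, with summits of 10 to 27 fragments. A peak 12.2 kb from the gene end was called in 2 later libraries and neither 0h library, and one 91.1 kb away in 3 later libraries and the first 0h library. ATAC-seq does not measure the Klf4 transcript, and reads from the coding sequence of the construct cannot be told apart from reads of the native gene.

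No region was higher later past the threshold, and the values that follow are descriptions. Among regions called in all 8 libraries, the 15 with the smallest p among those whose 6 later values all lay above both 0h values had limma adjusted p-values of 0.616 to 0.925, and 10 of them lay within 1 kb of a gene end, beside 66.8% of all regions called in all 8 libraries. Nfkbib encodes IκB-beta, an inhibitor that holds NF-κB in the cytoplasm, and its region, chr7:28766273-28766881, also holds the start of Sirt2, a deacetylase gene on the other strand. It had percentiles of 97.5, 99.1 and 99.6 later, against 87.6 and 75.6 at 0h, and folds of 15.3, 16.5 and 17.4 later, against 12.0 and 10.0 at 0h. Every later library ranked it among its strongest peaks and both 0h libraries ranked it lower. The difference was 17.1 points (SE 3.23, limma adjusted p = 0.616), and on the common rank 31.7 points (limma adjusted p = 0.0810), the smallest of any region.

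Yif1b, which encodes a membrane protein of the early secretory pathway, had the smallest p on the within-list scale. Its region, chr7:29237981-29238679, had 94.4, 96.7 and 98.6 later, against 81.7 and 73.9 at 0h, a difference of 18.8 points (SE 3.40, limma adjusted p = 0.616). Jak1, the tyrosine kinase that signals from cytokine and interferon receptors, had 89.5, 95.4 and 99.8 later, against 79.6 and 79.8 at 0h. The 2 libraries of 0h were close together here, and the difference was 16 points (SE 3.61, limma adjusted p = 0.925). Xrcc1, a scaffold of single-strand break repair, had 93.2, 96.4 and 98.4 later, against 66 and 82.5 at 0h. In each of these 4 regions the later values lay above both 0h values, as the choice required.

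Acad9, which encodes a mitochondrial acyl-CoA dehydrogenase needed for complex I assembly, had the largest difference of the 15. Its region, chr3:36065770-36066227, had 61.2, 72.5 and 83.0 later, against 34.7 and 14.9 at 0h, a difference of 47.6 points (SE 11.6, limma adjusted p = 0.925). Its summits were of 6 to 22 fragments. Etfb, the beta subunit of the electron transfer flavoprotein that takes electrons from such dehydrogenases, had 85.9, 95.9 and 99.2 later, against 73.9 and 82.4 at 0h. Srsf10, a splicing factor of the SR family, had 85.3, 92.6 and 97.5 later, against 79.3 and 58.3 at 0h. The other gene-end regions were those of Dcp2, which encodes the mRNA decapping enzyme, of Nudt8, a Nudix hydrolase gene, and of Lztfl1, a gene of BBSome trafficking. The other regions were named by Rbm19, Plekha1, Myo18b, Ripor2 and Marchf4, and the last lies inside Smarcal1, at a start of that DNA annealing helicase gene.

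Of the 15 regions with lower later values, chosen in the same way, 4 lay within 1 kb of a gene end, but of all 334 regions whose later values lay below both 0h values 58.7% did, beside the same 66.8%. Another 4 of the 15 had no protein-coding gene end within 100 kb, and the limma adjusted p was 0.925 for all 15. Mllt1 encodes ENL, a reader of acetylated histones in the super elongation complex and a relative of the AF9 part of the fusion. Its intronic region, chr17:56929490-56930500, had percentiles of 0.761, 18.5 and 44.1 later, against 77.8 and 61.8 at 0h. The difference was −49.4 points (SE 13.0), and on the common rank −41.5 points (limma adjusted p = 0.106). The folds were 4.04, 5.84 and 7.76 later, against 10.7 and 8.60 at 0h, over summits of 6 to 19 fragments.

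Pigl, a gene of GPI anchor synthesis, had an intronic region with 13.3, 28 and 42.6 later, against 72.2 and 75.3 at 0h (−45.9 points, SE 12.0). Otos named a region 27.6 kb from its gene end with 6.29, 21.1 and 31.8 later, against 59.5 and 56.5 at 0h (−37.7 points, SE 9.82). The 0h values were close together in both. Def8, a gene of lysosome positioning, had a promoter region with 30.3, 42.1 and 56.2 later, against 76.4 and 92.9 at 0h (−41.8 points, SE 12.3).

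Eif4g1, the scaffold of the translation initiation complex at the mRNA cap, was the strongest peak among the lower 15. Its promoter region, chr16:20672538-20673343, had 73.1, 81.1 and 90.6 later, against 96.5 and 97.5 at 0h, and folds of 10.6, 11.7 and 13.2 later, against 14.0 and 14.7 at 0h. The difference was −16 points (SE 5.42, limma adjusted p = 0.925). Fam219b had a promoter region with 37.1, 46.1 and 56.4 later, against 86.2 and 76.3 at 0h (−34.8 points, SE 11.7). The other lower regions were named by Gas2l1, Mark3, Ada, Rbm12b2 and Gm13570, the last inside Baz2b, and 2 of those with no gene end within 100 kb lay inside Anks1b and Mctp1.

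**Figure D4:**
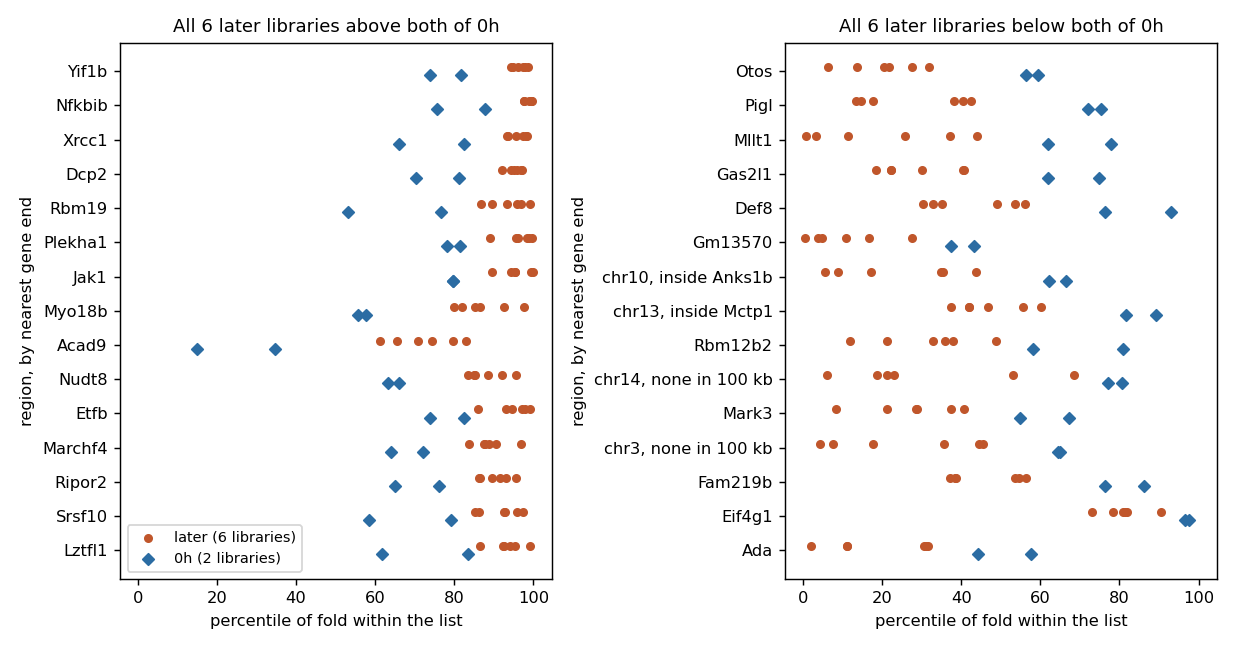
Within-list percentile of fold (x axis), 1 point per library, for the 15 higher and the 15 lower regions with the smallest p among those whose later and 0h values do not overlap, with later libraries as circles and 0h libraries as diamonds. The gaps follow from how the regions were chosen; Nfkbib has 97.5 to 99.6 later against 87.6 and 75.6 at 0h, and Mllt1 0.761 to 44.1 later against 77.8 and 61.8 at 0h.

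Regions called on one side only were few. Of the 32720 merged regions, 88 (0.269%) had a peak at every one of the 6 later libraries but at neither library of 0h, against 200 (0.611%) with a peak in both 0h lists but in none of the later lists. These counts are of different stringency, 6 of 6 libraries on one side and 2 of 2 on the other, and a peak call can depend on depth, so they were not compared. The 88 later-only regions had a median mean percentile of 38.1 and the 200 0h-only regions 23.8, beside 31.9 for all merged regions and 71.1 for those called in all 8. Of the later-only regions 20 (22.7%, 95% Wilson interval 15.2% to 32.5%) lay near a gene end, against 22 (11.0%, 7.38% to 16.1%) of the 0h-only ones, beside 30.5% of all merged regions and 66.8% of those called in all 8. Beyond 100 kb of any gene end lay 3 of the later-only and 36 of the 0h-only regions.

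Among regions called in every later library or in none, those with a peak in a single 0h library had it more often in the first. Of 953 regions called in all 6 later libraries and 1 library of 0h, 852 had the first 0h library and 101 the second. Of 3457 regions called in 1 library of 0h and in no later one, 2652 were in the first and 805 in the second. Regions called in a single later library and neither 0h library numbered 5666. The plot of the call grid gives all combinations.

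**Figure D5:**
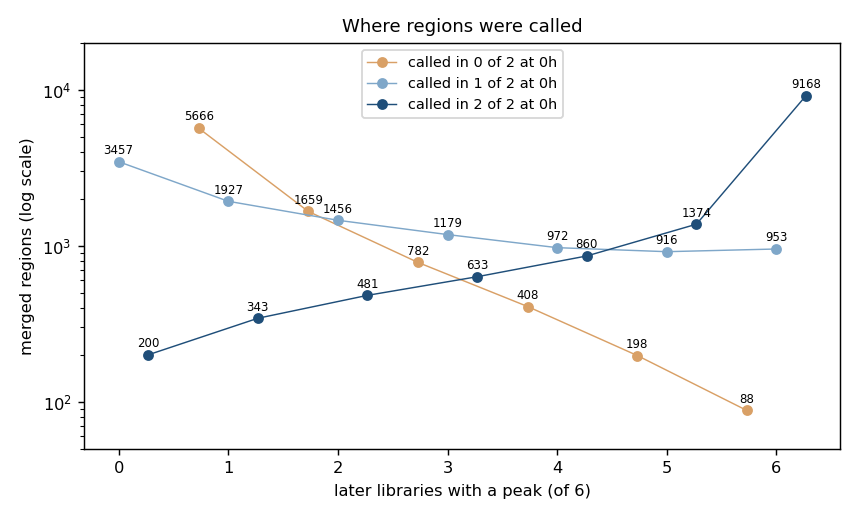
Number of merged regions (y axis, log scale) by how many later libraries had a peak there (x axis, 0 to 6), with a line of points for each number of 0h libraries (0, 1 or 2) that had one. Regions in all 8 libraries number 9168, those in 6 later and no 0h library 88, and those in both 0h and no later library 200.

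Among the later-only regions, the strongest included an intronic region of Slc36a3, of an amino acid transporter family, with percentiles of 49.9, 72.6 and 84.4 over the later libraries. An intronic region of Itgb2, the beta-2 integrin chain (CD18) of leukocyte adhesion, had 51.9, 68.7 and 76.8. A second region inside Itgb2, not a later-only one, went the other way. It had 13.3, 26.4 and 30.6 over 5 later libraries, all below the 37.5 and 56.2 at 0h (−23.5 points, SE 10.5, limma adjusted p = 0.925). Other later-only regions of the 10 with the highest mean percentile were named by Ccbe1, Egln2, a prolyl hydroxylase of the oxygen-sensing pathway, Dynlt1b, Myo16, B4galt5, Tatdn1, Cd5 and Cbx2. Cbx2, a chromobox subunit of Polycomb repressive complex 1, had its region 19 bp from the gene end, with 41.1, 52.0 and 78.1. Phc2, another subunit of that complex, had a later-only region at an alternative start, with 38.7, 49.3 and 72.6. Mmp8, the neutrophil collagenase, and Casp6, an apoptotic caspase, completed the listed genes with such a region, at medians of 49.4 and 39.7. The promoter of Il4ra, the interleukin-4 receptor alpha chain, was called later only as well, with 43.4, 47.8 and 54.8, and was named after its values were seen.

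Among the 0h-only regions, the strongest lay at chr12:64598138-64598360, with no protein-coding gene end within 100 kb and with percentiles of 72.7 and 68.6 in the 0h libraries. An intronic region of Dnm3, a dynamin gene, had 75.6 and 49.4, and a region near Pde5a, a cGMP phosphodiesterase gene, 54.4 and 56.6. Mrap, Rragc and Tarsl2 named 3 more of the first 10, and the others had no gene end within 100 kb, 3 of them inside Inpp4b, Fhit and Tmem117. Listed genes with a 0h-only region included Ccne1 (32.0 and 30.4), Tnfsf10 (16.2 and 27.2) and Nfkbia (30.6 and 7.70). The summits of these 3 were of 5 to 11 fragments.

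The gene lists were read by their counts and medians beside those of all regions tested, since the lists were chosen with results of these data known. In none of the 18 lists did a region pass the adjusted threshold. Over all regions tested the median difference was −1.36 points, and 0.09 points below 0 on the common rank. Where the common-rank median of a list is not given below, it had the same sign as the within-list median.

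The leukaemia programme was split. The MLL-AF9 self-renewal list had 52 tested regions, 20 positive and 32 negative, with a median of −2.61 points and 1.55 on the common rank. A region inside Mef2c, a myocyte enhancer factor that MLL leukaemias express, had 69.8, 89.0 and 94.5 later, against 62.6 and 67.3 at 0h (20.9 points, SE 7.33). A region in Pbx3, a homeodomain partner of Hoxa9 and Meis1, had 11.5, 25.6 and 35.0 over 5 later libraries, against 53.3 in the first 0h library. A region 872 bp from the Meis1 gene end had 23.1, 30.3 and 52.0 over 5 later libraries, against 3.24 in the first 0h library. The limma adjusted p was 0.925 for all 3. Genes of Polycomb and chromatin complexes had 34 tested regions, 12 positive and 22 negative, with a median of −2.58. Within that list Phc1 had 12.9, 14.5 and 43.0 later, against 52.6 in the first 0h library only, and Aff4, a scaffold of the super elongation complex, 67.8, 91.9 and 99.1 later, against 80.8 and 64.3 at 0h.

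On the within-list percentile, negative differences outnumbered positive ones in most lists, as they did over all regions tested (7325 negative and 5946 positive). Over the regions ranked on the common rank the split was nearly even (4620 negative and 4548 positive). The KLF and SP family had 30 tested regions, 10 positive and 20 negative, with a median of −4.15 points and −5.88 on the common rank. Klf5 had 75.9, 83.0 and 92.0 later, against 88.3 and 99.1 at 0h (−10.6 points, SE 5.88), and Klf10 26.9, 30.7 and 46.9 later, against 37.0 and 77.8 at 0h. Myeloid transcription factors had 48 tested regions, 12 positive and 36 negative, with a median of −6.62 points and −4.80 on the common rank. Of the 29 called in all 8 libraries, 1 had all later values above both 0h values and 5 had all below, beside 2.89% and 3.64% of all regions called in all 8. A region in Runx1, a core regulator of blood stem cells, had 28.9, 42.1 and 65.8 later, against 93.2 and 66.2 at 0h (−33.8 points, SE 13.6). A region 85.0 kb from Cebpb, the C/EBP of emergency granulopoiesis, had 22.2, 37.2 and 70.5 later, against 3.46 and 14.1 at 0h (32.6 points, SE 13.0). A region in Etv6 had 6.6, 39.3 and 55.1 later, against 55.5 and 70.6 at 0h. Each of these 3 had a limma adjusted p of 0.925.

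Mature myeloid genes had few tested regions. Monocyte and macrophage genes had 18, 7 positive and 11 negative, with a median of −4.37 points. A region 21.3 kb from Ly6c2, a surface marker of inflammatory monocytes, had 86.3, 95.8 and 98.6 later, against 99.5 and 99.7 at 0h. Granulocyte genes had 3 tested regions, with a median of −6.66. Ctsg, the cathepsin of azurophil granules, had 21.3, 38.9 and 65.3 later, against 28.5 and 16.1 at 0h. Leukocyte adhesion and receptor genes had 37, 17 positive and 20 negative, with a median of −1.88, and the largest differences there rested on the second 0h library alone: Cd44 had 17.3, 22.2 and 29.4 over 5 later libraries, against 61.0 in it, and Clec5a 39.4, 52.8 and 68.3 over 5 later libraries, against 5.48 in it.

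Apoptosis genes, beside a background of −1.36 points over all regions tested, had 37 tested regions, 17 positive and 20 negative. Their median was −0.89 points but 0.86 on the common rank. The Mcl1 promoter region, of a survival protein of the BCL2 family, had 27.8, 71.5 and 79.2 later, against 41.2 and 19.6 at 0h (34.0 points, SE 14.9). Cflar, which encodes the caspase-8 inhibitor c-FLIP, had 7.42, 41.5 and 57.6 over 5 later libraries, against 16.3 and 3.32 at 0h. Casp9, the initiator caspase of the mitochondrial pathway, had 31.8, 35.6 and 51.0 later, against 52.5 and 74.1 at 0h. Only in the last of these were the later values all on one side of both 0h values. Cell cycle genes had 44 tested regions, 16 positive and 28 negative, with a median of −2.28. A region in Ccnd3, a D-type cyclin gene, had 28.3, 67.5 and 83.4 later, against 21.8 and 37.4 at 0h, and one in Cdk6 1.24, 4.42 and 21.8 later, against 31.7 in the first 0h library.

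AP-1 and immediate early genes had 49 tested regions, 20 positive and 29 negative, with a median of −1.79 points and 1.32 on the common rank. Fosl2 named a region with 23.3, 57.9 and 68.1 later, against 34.8 and 5.48 at 0h, and Junb one with 0.575, 3.12 and 8.24 later, against 1.58 and 44.5 at 0h. In the Junb region only the second 0h library stood above the later ones. NF-κB and inflammatory genes had 29 tested regions, 11 positive and 18 negative, with a median of −4.27 points and −8.55 on the common rank, although Nfkbib was among the highest. Nfkbia, which encodes IκB-alpha, had a promoter region with 28.6, 41.8 and 64.9 later, against 28.4 and 2.07 at 0h, and Nfkbie, which encodes IκB-epsilon, one with 33.4, 53.2 and 78.7 later, against 67.9 and 85.5 at 0h. Interferon response genes had 10 tested regions, with a median of −4.23 points but 0.94 on the common rank. Cytoplasmic ribosomal protein genes had 49, 23 positive and 26 negative, with a median of −1.0 points but 0.26 on the common rank. Rps7 had 72.5, 79.7 and 93.3 later, against 72.4 and 58.1 at 0h.

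Lists for other lineages had 2 to 11 tested regions each. The medians were −17.1 points for 4 B lineage regions, 0.10 for 11 T and NK lineage regions, 0.24 for 2 erythroid, −4.26 for 6 megakaryocyte and 0.18 for 3 stromal and endothelial regions. On the common rank they were, in the same order, −23.1 (1 region), 6.77 (6), 0.41 (2), 5.83 (4) and −8.43 (1). The last 2 lists thus changed sign with the scale. Cd3d, which encodes a chain of the T cell receptor complex, had a region with 53.7, 67.6 and 87.4 later, against 50.3 and 14.0 at 0h (35.7 points, SE 13.5, limma adjusted p = 0.925).

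The KLF motifs were set beside the differences of the regions that hold them. CCNCNCCC was found in 67.1% of 9125 promoters in tested regions. On the common rank the median later minus 0h difference was 0.45 points for the 4142 gene-start regions with it and −0.81 for the 1542 without it. Median ranks of the regions with it were 57.8, 60.2 and 61.6 in the later libraries, against 58.6 and 59.0 at 0h, so the later range held both 0h values. Those of the regions without it were 51.6, 52.8 and 56.1 later, against 57.4 and 50.2 at 0h, which lay on either side of the later range. For CACCC the median differences were 0.23 with and −0.0050 without the motif. TGANTCA (AP-1), TGTGGT (RUNX), TTGCNNAA (C/EBP) and GAGGAAGT (PU.1) were held by 6.78%, 13.9%, 9.62% and 2.46% of all promoters. The regions with them had median differences of 0.06, 0.19, −1.29 and −1.63 points.

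A single library decided whether any region passed. With the first 0h library left out, 46 regions rose at an adjusted limma p below 0.05 and 0 fell, with the smallest adjusted p at 0.00430, and the lone 0h library was assumed to vary like the others. Yif1b, Nfkbib, Dcp2, Rbm19 and Lztfl1 were among them, and had been named above because both their 0h values lay below all later ones. The called regions were higher against the second 0h library alone. The first lay below all later values in 30.4% of them, beside 7.89% of the regions of that fit with a peak in it. It lay below the later median in 45.7%, beside 36.3%, so in most of them it did not show the difference. Of the 46, 34 (73.9%) lay near a gene end, beside 61.4% of the 10798 regions of that fit. With any other single library left out, no region passed in either direction. The second 0h library is the shallowest of the 8, with a median summit of 14 fragments, and the part of depth in these 46 calls was not tested.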

How the data were processed

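ATAC-seq was measured in 8 libraries, 2 each of 0h, 6h, 12h and 24h, grouped by their titles. The submitters' processing notes name BWA, SAMtools and MACS2 and the mm10 build, without versions or settings. There is 1 list for each library, so peak calling by the authors was per sample. Each peak's fold, a linear ratio of summit pile-up to local background, is the authors' own, as are the deposited −log10 p-value, −log10 q-value, integer score and summit position. The deposited score was not used.

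The members and gene lists were chosen with earlier results of these data known. Folds were converted to percentiles within each list. Regions called in 6 or more libraries and in at least 1 library of 0h were fitted with limma 3.58.1 (R 4.3.3; lmFit, eBayes with trend; libraries without a peak missing, not imputed), with Benjamini-Hochberg adjustment over 13271 regions. Library measures were compared by exact permutation (Python 3.11.15, scipy 1.17.1). The scripts were tested on simulated data. Intervals cover counting error only. Regions take the protein-coding gene end nearest to the strongest summit within 100 kb, from 21631 genes of GRCm38.p6, and 464 of 466 list entries matched. The text names Klf4; the 15 regions per direction with the smallest p, called in all 8 libraries with later and 0h values apart; the 10 strongest on each side only; and up to 3 genes per list. A few genes that this rule or the marker lists hold are not reported here. Alternatives were stricter and equal-length lists, other scales and overlaps, a replicate block and leaving out each library.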

Additional observations from a re-analysis of the deposited data

Results flagged for a closer look

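Of 99 values tested for a library far from the others of its group, 2 were picked out, where chance gives about 1 in 20. At the promoter region of E2f7, a repressor of the E2F family, 12h replicate 1 had a percentile of 87.3, away from the other later libraries, which reached 99.0, against 92.0 and 84.0 at 0h. At the region of Rps29, a protein of the small ribosomal subunit, 6h replicate 1 had 94.2, away from the other later libraries, which reached 99.6, against 90.7 and 93.8 at 0h.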

How the results depend on the processing

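The 2 libraries of 0h were of very different depth, and the median standard error was 12.3 points. Differences well above that did not pass either, such as 47.6 points for Acad9 and −49.4 for Mllt1 (limma adjusted p = 0.925 for both). The second 0h library, with a median summit of 14 fragments, had 15638 peaks. The 24h libraries, with 21 and 22 fragments, had 15104 and 14822. The part of depth in peak presence was not tested. No region passed in either direction (0 and 0), except without 0h replicate 1, where 46 were higher; the count of higher calls ranged from 0 to 46 and that of lower calls from 0 to 0 over the fits leaving out 1 library. Unadjusted counts ranged from 154 to 968 higher and 137 to 459 lower over all alternatives.

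Later-only regions numbered 286 when 5 later libraries were enough, and 98 to 940 with 1 library left out (940 without 0h replicate 1, 189 without 0h replicate 2, 142 without 24h replicate 2). The 0h-only regions numbered 543 under the looser rule, and 214 to 2852 with 1 library left out (1005 without 0h replicate 1, 2852 without 0h replicate 2, 314 without 12h replicate 1). The cause was not tested, beyond that fewer lists make either rule easier to meet.

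The later minus 0h difference in peaks per list was −874.5, 56.8 at a −log10 q of at least 5, and −3933.5 to 2184.5 with 1 library left out. The share of peaks in regions called in all libraries differed by 1.94 percentage points, by −1.15 at that q and by −0.188 with lists of equal length, and by −7.25 to 12.1 with 1 library left out. With 1 library left out, the other measures ranged from −0.700 to 6.40 percentage points for the share near a gene end, −113.7 to 150.5 bp for width, −0.321 to 1.42 for the rank of gene-end regions and −0.0925 to 1.29 for the fold. Each of the 6 turned direction when 1 of the 0h libraries was left out.

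Of 1381 alternative values over 83 named regions, 1362 kept direction and side of the threshold, 5 passed it (without 0h replicate 1) and 14 turned. The inner Klf4 region turned to 0.0059 at a −log10 q of at least 5 and 0.85 with lists of equal length, and its promoter to −1.08 ranked by −log10 p. Ifit2 turned to −9.95, −1.25 and −9.83 (q of at least 5, equal length, cover of at least 50%), Klf1 to −3.03 (cover), Vcam1 to −0.98 (replicate block) and Col1a1 to −2.97 and −0.76 (−log10 p, 4 times as groups). Leaving out 1 library of 0h gave −20.2 to 6.92 for Prtn3, −40.8 to 2.16 for Junb, −9.83 to 39.95 for Ifit2 and −3.03 to 21.6 for Klf1.

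A replicate block gave 0 calls in either direction, with 334 higher and 261 lower at an unadjusted p below 0.05. Same-numbered libraries did not deviate together (correlations −0.0369 to 0.0112). Ranks vary much between libraries of one time, so this cannot decide whether the numbers pair the libraries, and the labels state no pairing. Peaks per list had no value for equal-length lists or the cover rule, and the share near a gene end none for the cover rule.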
